A study of Mus musculus with 9 samples.

Results

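The chemokine ligands are the secreted proteins that steer leukocytes, and their transcripts were followed here in mouse lungs after lipopolysaccharide (LPS). Members were the rows of the deposited gene table whose symbol starts with Ccl, Cxcl, Cx3cl or Xcl and goes on with a number. The rule found 45 rows among 21930 genes, and the 35 rows with 10 or more counts in at least 3 libraries are described. Of these, 21 were Ccl genes, 12 were Cxcl genes, and the last were Cx3cl1 and Xcl1. Of the 10 rows left out, 7 were copies on unplaced scaffolds with 0 reads in all libraries, and 3 lie on chromosomes. Ccl26 had 0 reads in all 9 libraries, which allows up to 3 counts a library, or 0.0831 to 0.111 per 1e+06 of the unscaled library total. All other levels per 1e+06 counts are scaled by TMM and called CPM. Ccl1 had 0, 16 and 2 reads in the LPS libraries and 0 in the others. Ccl27b had 3, 4 and 4 reads in LPS plus RSBD libraries, 3, 7 and 0 in LPS libraries and 3, 4 and 3 in control libraries.

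The study asked how a herbal decoction, Renshen Baidu Powder (RSBD), changes the lung transcriptome in LPS-induced acute lung injury, a mouse model in which a component of the Gram-negative outer membrane is placed in the airways. LPS plus RSBD mice received LPS at 2 mg/kg through the trachea and, from 24 h later, RSBD by daily gavage. LPS mice received the same LPS with vehicle, and control mice received saline in place of LPS. All mice were C57BL/6, given as male and 6 to 8 weeks of age, all were anaesthetised with tribromoethanol, and whole lungs of 3 mice a group were taken on day 5. The labels give 5 gavage days starting a day after LPS, so the number of doses received by day 5 is unclear. Libraries are called RSBD 1 to 3 (the LPS plus RSBD mice), LPS 1 to 3 and control 1 to 3.

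Each library held 26959662 to 36113905 counts, of which the 35 ligands took 0.152% to 0.228%. Genes of chromosome Y had 7511 to 10918 reads in RSBD and LPS libraries, but 6 to 9 reads in control libraries, although the labels give males throughout. A comparison with the control group and a comparison with libraries lacking Y transcripts cannot be told apart in these data. RSBD 2 and LPS 2 stood apart, holding the highest level of their group for 25 and 22 of the 35 ligands, so results are also given without them. Alveolar type 2 cell markers, which define lung tissue, summed to 11600 to 15300 CPM in RSBD, 10100 to 16200 CPM in LPS and 12000 to 14400 CPM in control libraries. Levels are given in CPM for each library. Levels of different genes were set against each other in the authors' TPM, transcripts per 1e+06, which are per length. Fold changes are given on the log2 scale with their SE, as fitted by the quasi-likelihood method of edgeR, and a gene was called where its p, adjusted by Benjamini-Hochberg over the 15636 genes tested, was under 0.05. In bulk lung, fewer cells of a type and less RNA per cell cannot be told apart.

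Chemokines bind heparan sulphate on endothelium and matrix and act through G-protein-coupled receptors on leukocytes, and the set of receptors on a leukocyte decides which gradients it follows. In the lung, epithelium, endothelium and resident macrophages release them, and they govern the entry of neutrophils, monocytes and lymphocytes into the airspaces. Families are named for the spacing of the cysteines near the start of the mature protein. The coding sequence around those cysteines is shown for the called ligands and for members with the spacings and motifs named after them, read from GENCODE M21 transcripts (GRCm38), with in-frame cysteine codons in capitals.
Ccl5: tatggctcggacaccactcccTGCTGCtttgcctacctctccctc
Ccl6: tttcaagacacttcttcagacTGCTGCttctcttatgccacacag
Ccl9: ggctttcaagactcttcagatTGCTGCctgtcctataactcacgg
Cxcl12: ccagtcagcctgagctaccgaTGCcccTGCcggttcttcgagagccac
Cxcl17: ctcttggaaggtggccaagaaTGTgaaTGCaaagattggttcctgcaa
Cxcl1: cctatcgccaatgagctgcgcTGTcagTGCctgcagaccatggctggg
Cxcl15: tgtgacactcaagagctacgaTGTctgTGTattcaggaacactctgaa
Cxcl9: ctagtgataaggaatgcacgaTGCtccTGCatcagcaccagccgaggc
Cxcl10: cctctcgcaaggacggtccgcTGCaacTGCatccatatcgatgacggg
Cx3cl1: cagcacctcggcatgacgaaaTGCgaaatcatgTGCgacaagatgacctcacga
Xcl1: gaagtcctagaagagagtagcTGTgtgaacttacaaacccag
The codons are adjacent in Ccl5, Ccl6 and Ccl9, 1 codon apart in the Cxcl genes and 3 codons apart in Cx3cl1, and the Xcl1 window holds a single cysteine codon. Each window was found by searching for the spacing that the gene's symbol names, and for Xcl1 for the first cysteine codon. The spacing shown was thus set by the search and is not a result. No such pair was found in the transcripts used for Ccl25 and Ccl27a. In Cxcl1 and Cxcl15 the capitals follow codons for glutamate, leucine and arginine, the motif of the CXC ligands that attract neutrophils, and Cxcl2, Cxcl3 and Cxcl5 carried it too. Cxcl12, Cxcl17, Cxcl9 and Cxcl10 lacked it.

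The most abundant ligand was Cxcl15 (lungkine), a neutrophil attractant made by mouse airway and alveolar epithelium. Its level was 621 ± 158 TPM in LPS plus RSBD, 654 ± 58.5 TPM in LPS and 658 ± 109 TPM in control lungs (SD, n = 3 each). Cxcl15 alone took 33.6% to 51.2% of all ligand counts. Ccl6 followed at 271 ± 47.2 TPM in LPS plus RSBD, 464 ± 117 TPM in LPS and 252 ± 28.6 TPM in control lungs. Over the 9 libraries Ccl6 averaged 329 TPM, Ccl5 118 TPM, Cxcl12 110 TPM, Cxcl17 103 TPM and Ccl21a 80.6 TPM. The scarcest described ligands were Cxcl3 at 0.84 TPM and the eotaxin Ccl24 at 0.519 TPM. The 5 ligands that passed the LPS test were Ccl6, Ccl5, Cxcl12, Cxcl17 and Ccl9, and the first 4 of them stood directly below Cxcl15 in this order of levels.

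**Figure D1:**
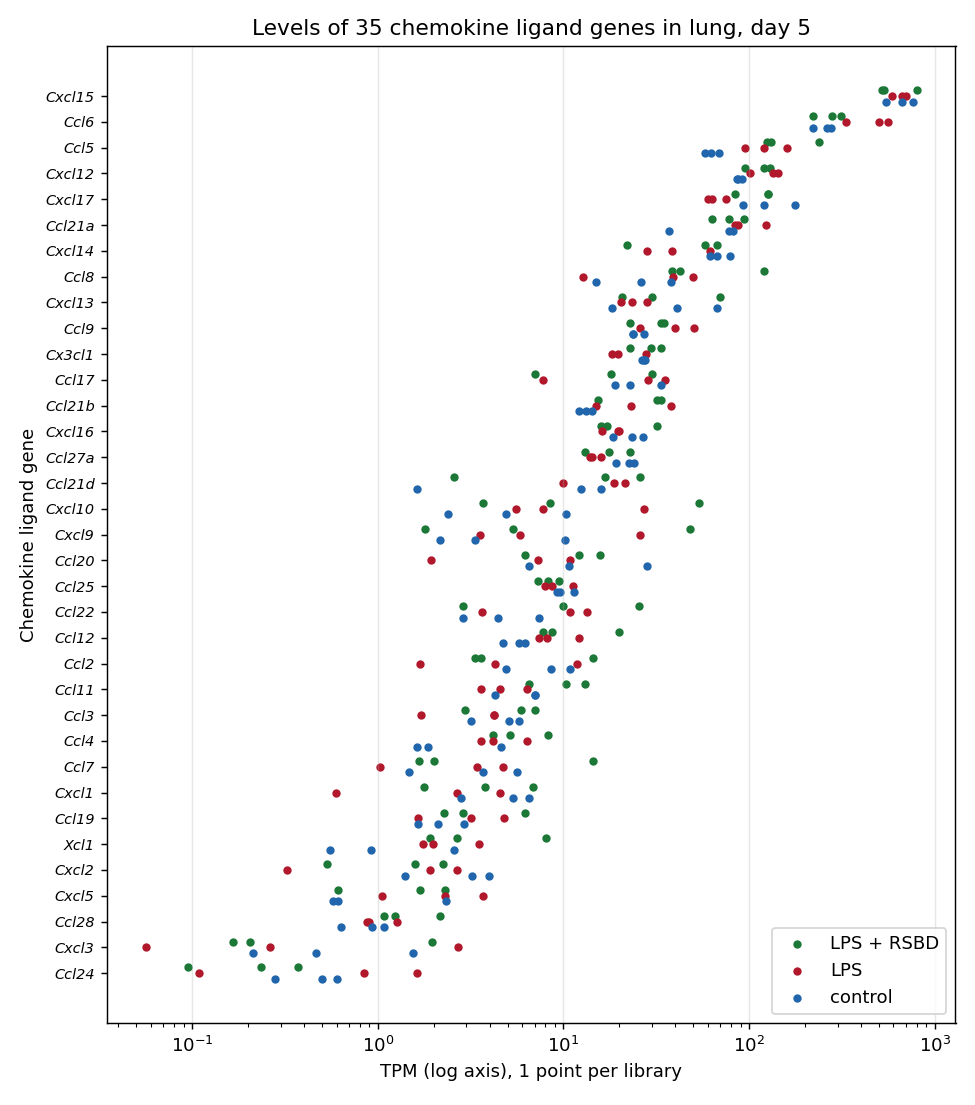
Level of each described ligand in TPM on a log axis, 1 point a library, coloured by group and ordered by mean TPM over the 9 libraries. Cxcl15 averaged 644 TPM over the 9 libraries and Ccl24 0.519 TPM, and the points of Cxcl9 and Cxcl10 spread far more widely than those of Cxcl15.

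In LPS against control lungs, 5 of the 35 ligands passed the test (14.3%), with 4 higher and 1 lower. Over all genes tested, 17.4% were called, 8.79% higher and 8.63% lower, so the share of ligands was close to the background. At an unadjusted p under 0.05 there were 7 ligands (20.0%), against 34.5% of all genes. The groups did not overlap for 8 ligands (22.9%), against 38.0% of all genes, and 9 ligands (25.7%) had a fitted difference of 2-fold or more, against 7.94% of all genes. The median log2 fold change of the ligands was 0.37, with 21 of 35 over 0, against a median of -0.01 over all genes. The ligands' fold changes were also less precise, with a median SE of 0.45 against 0.15 over all genes. The count of 5 dropped to 0 with control 2, control 3 or LPS 2 left out, and to 3 with LPS 1 left out. Without LPS 2 and RSBD 2 together Ccl5 was still called (edgeR adjusted p = 0.0232), while Ccl6 (0.0996), Ccl9 (0.152), Cxcl12 (0.0979) and Cxcl17 (0.0596) were not.

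The inflammatory CC ligands Ccl3, Ccl4, Ccl5, Ccl6 and Ccl9, which draw myeloid cells and effector lymphocytes, held most of the calls, with 3 of 5 higher in LPS lungs and 0 lower. Ccl5 (RANTES), a product of T and NK cells, lies on chromosome 11 (chr11:83525778-83530518, mm10). It had 45.3, 39.9 and 32.1 CPM in LPS libraries, against 19.5, 16.8 and 20.0 CPM in control libraries. Every LPS library was above every control library. Ccl5 was higher in LPS lungs by 1.06 ± 0.24 on the log2 scale (edgeR adjusted p = 0.0213). The call was lost without control 2, control 3 or LPS 2, and the adjusted p ran between 0.000231 and 0.074 over 18 alternatives. NK cell markers moved alongside it: their summed level was 92.2, 69.6 and 72.0 CPM in LPS libraries and 33.6, 28.4 and 32.1 CPM in control libraries, and 6 of 8 markers were called higher. T cell markers summed to 133 to 164 CPM in LPS and 106 to 117 CPM in control libraries, with 0 of 7 called. The part of either cell type in the Ccl5 result was not tested.

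Ccl6 (chr11:83587882-83593087), a rodent ligand of Ccr1 made by macrophages and neutrophils, had 246, 487 and 447 CPM in LPS libraries, against 218, 165 and 198 CPM in control libraries. The groups did not overlap, but LPS 1 stood close to control 1. Ccl6 was higher in LPS lungs by 1.02 ± 0.24 (edgeR adjusted p = 0.0258). Without control 2, control 3, LPS 2 or LPS 3 the call was lost, and the adjusted p ran between 0.000163 and 0.0996 over the alternatives. The gene overlaps E230016K23Rik on the opposite strand, and whether the counting used strand is not given in the sources used here.

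Ccl9 (chr11:83572919-83578636), another rodent Ccr1 ligand of myeloid cells, had 79.4, 72.9 and 48.8 CPM in LPS libraries, against 40.9, 43.9 and 38.5 CPM in control libraries. LPS 3 was the LPS library nearest to control, and the groups did not overlap. Its log2 fold change was 0.71 ± 0.20 (edgeR adjusted p = 0.0414). This call was the least stable of the 5: it was lost in 10 of 18 alternatives, among them limma on log2 TPM (0.113 and 0.114) and the omission of any control library, LPS 1, LPS 2 or RSBD 2, with adjusted p between 0.00585 and 0.152 over all of them.

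Some markers of the myeloid cells that make Ccl6 and Ccl9 also differed between these groups, where 8.79% of all genes tested were called higher. Monocyte markers summed to 3120, 4430 and 3350 CPM in LPS and to 1800, 1590 and 1930 CPM in control libraries, with 4 of 8 called higher. The largest part of that sum was Chil3, which did not overlap and was not called (1.08 ± 0.36, edgeR adjusted p = 0.0674). Alveolar macrophage markers summed to 428 to 558 CPM in LPS and 309 to 359 CPM in control libraries, with 5 of 8 called higher. The others overlapped and were not called, with fits of -0.40 ± 0.35 for Fabp4, -0.31 ± 0.68 for Marco and 0.12 ± 0.17 for Car4. Neutrophil markers, dominated by S100a8 and S100a9, summed to 7330, 6760 and 2610 CPM in LPS and to 2050, 834 and 2310 CPM in control libraries, with 2 of 12 called higher. The part of these cells in the Ccl6 and Ccl9 results was not tested.

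Ccl3 and Ccl4, the macrophage inflammatory proteins that share the chromosome 11 cluster with Ccl5, Ccl6 and Ccl9 (chr11:83525778-83664683), did not pass. Ccl3 had 1.71, 1.99 and 0.836 CPM in LPS libraries, against 1.41, 2.39 and 2.13 CPM in control libraries. Ccl4 had 2.23, 1.7 and 1.49 CPM in LPS libraries, against 0.633, 0.669 and 1.67 CPM in control libraries, and these overlapped. The cluster thus held 3 called ligands of 5. The neighbouring cluster of Ccl2, Ccl7, Ccl11, Ccl12 and Ccl8 (chr11:82035571-82116799) held 0 of 5, as did the cluster of Cxcl5, Cxcl3, Cxcl15, Cxcl1 and Cxcl2 on chromosome 5 (chr5:90759360-90905938). The platelet CXC chemokine genes Pf4 and Ppbp also lie in this chromosome 5 interval, but fall outside the symbol rule and are not in its count. Looked at after the data were seen, both were called higher in LPS than in control lungs (edgeR adjusted p = 0.0393 and 0.0337).

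Cxcl12 (chr6:117168535-117181367), a stromal and endothelial ligand of Cxcr4 that retains neutrophils and progenitors in bone marrow, had 361, 451 and 311 CPM in LPS libraries, against 266, 234 and 237 CPM in control libraries. The LPS libraries all lay above the control libraries. Cxcl12 was higher in LPS lungs by 0.61 ± 0.14 (edgeR adjusted p = 0.0222), the smallest of the 5 called differences and the one with the smallest SE. The call was lost with limma at a pseudocount of 1 (0.0509) and without control 2, control 3 or LPS 2, with adjusted p between 0.000746 and 0.0979 over all alternatives. Endothelial markers summed to 3620, 2820 and 2730 CPM in LPS and 2740, 2470 and 2440 CPM in control libraries, with 2 of 6 called higher, Cdh5 and Pecam1. The others were not called, with fits of 0.31 ± 0.13 for Cldn5, 0.05 ± 0.30 for Vwf, -0.06 ± 0.24 for Lyve1 and -0.51 ± 0.25 for Prox1. Vwf had 1300, 723 and 467 CPM in LPS libraries, and Prox1 was lower in LPS libraries without overlap. The part of endothelium in the Cxcl12 result was not tested.

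Cxcl17 (chr7:25400053-25412886), a chemokine of mucosal epithelium whose receptor is not settled, was the ligand called lower. It had 23.9, 35.2 and 30.0 CPM in LPS libraries, against 40.3, 49.5 and 72.6 CPM in control libraries. All LPS libraries lay below the control libraries, among which control 3 was the highest. Cxcl17 fell by 0.87 ± 0.24 on the log2 scale in LPS lungs (edgeR adjusted p = 0.0411). The call was lost with the replicate block (0.0535), without control 2, control 3, RSBD 1 or any LPS library, and the adjusted p ran between 0.0033 and 0.115. Club cell markers summed to 20300, 26600 and 30700 CPM in LPS and 40700, 33100 and 28500 CPM in control libraries, with 3 of 6 called lower, and their part in the Cxcl17 result was not tested. The gene also overlaps an antisense transcript, 4732471J01Rik. Cxcl14, an epithelial ligand that was placed beside it because its receptor is also unsettled, had 33.2, 28.5 and 64.4 CPM in LPS libraries, against 62.6, 77.4 and 61.2 CPM in control libraries, which overlapped.

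**Figure D2:**
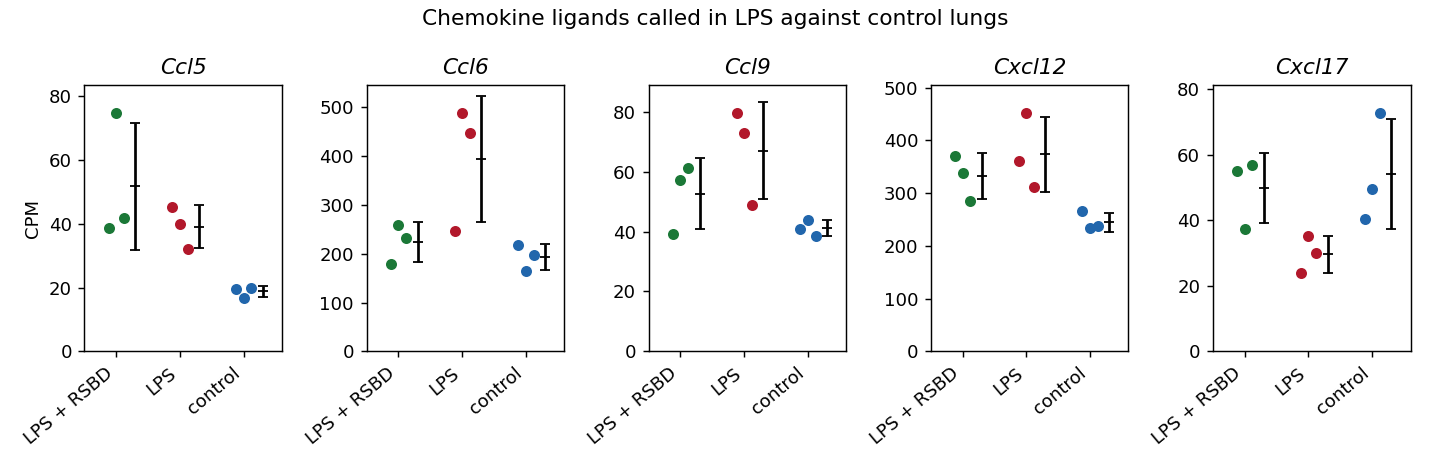
CPM of the 5 ligands called in LPS against control lungs, 1 point a library, with bars for mean ± SD (n = 3). Ccl5, Ccl6, Ccl9 and Cxcl12 are higher and Cxcl17 is lower in LPS than in control libraries with no overlap. The LPS plus RSBD means of Ccl6, Ccl9 and Cxcl17 lie nearer to the control than to the LPS mean. That of Cxcl12 lies nearer to the LPS mean, and that of Ccl5 lies above both. The 5 were chosen by their difference between these LPS and control libraries, and 0 were called in LPS plus RSBD against LPS lungs.

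None of the 5 neutrophil attractants with the glutamate, leucine and arginine motif was called in LPS against control lungs (edgeR adjusted p between 0.282 and 0.883). Cxcl1 (KC), a main early neutrophil attractant in mice, had 0.371, 3.3 and 1.78 CPM in LPS libraries, against 2.08, 4.49 and 4.45 CPM in control libraries. The groups overlapped, and LPS 1 was the lowest of all. The fit gave -1.01 ± 0.67 (adjusted p = 0.322). Cxcl15 had 659, 868 and 940 CPM in LPS libraries, against 809, 873 and 628 CPM in control libraries, with a fit of 0.09 ± 0.20 (adjusted p = 0.766). Cxcl2 (MIP-2) lay between 0.363 and 2.29 CPM in LPS and between 1.34 and 3.27 CPM in control libraries. Cxcl5, a product of alveolar epithelium, lay between 0.929 and 3.66 CPM in LPS and 0.598 and 2.1 CPM in control libraries. Cxcl2 and Cxcl3 share 269 of 300 coding bases (89.7%).

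The 3 Ccr2 ligands, which draw classical monocytes, were also not called (edgeR adjusted p between 0.165 and 0.965). Ccl2 (MCP-1) had 0.78, 6.47 and 2.29 CPM in LPS libraries, against 2.36, 3.92 and 5.09 CPM in control libraries. LPS 2 was above and LPS 1 below all control libraries, and the fit was -0.25 ± 0.76 (adjusted p = 0.85). Ccl12, which binds the same receptor in the mouse, had 2.3, 3.98 and 2.54 CPM in LPS libraries, against 1.48, 1.69 and 1.81 CPM in control libraries. These groups did not overlap, but the fit of 0.83 ± 0.39 was not called (adjusted p = 0.165). Ccr2 itself, the receptor, was called higher and is described with the receptors. Cx3cl1 (fractalkine), the membrane-bound endothelial and epithelial ligand of patrolling monocytes and NK cells, had 30.3, 34.7 and 55.2 CPM in LPS libraries, against 47.3, 43.5 and 45.1 CPM in control libraries, with a fit of -0.18 ± 0.21 (adjusted p = 0.586).

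Ligands of eosinophils and of type 2 T cells were likewise not called. Ccl11 (eotaxin-1), a Ccr3 ligand of fibroblasts and epithelium, had 2.04, 3.04 and 4.32 CPM in LPS libraries, against 2.67, 4.08 and 4.13 CPM in control libraries, with a fit of -0.21 ± 0.34 (edgeR adjusted p = 0.695). Ccl8, a Ccr8 ligand in the mouse, had 3.42, 15.6 and 12.5 CPM in LPS libraries, against 4.4, 7.16 and 10.5 CPM in control libraries. LPS 1 was the lowest and LPS 2 the highest of the 6, and the fit was 0.52 ± 0.61 (adjusted p = 0.584). The Ccr4 ligands Ccl17 and Ccl22, which dendritic cells make, were also spread widely in LPS lungs, and the groups overlapped for each. Ccl17 had 2.12, 9.01 and 11.4 CPM in LPS libraries, against 5.63, 9.27 and 6.4 CPM in control libraries. Ccl22 had 4.27, 18.2 and 15 CPM in LPS libraries, against 3.69, 8.76 and 5.19 CPM in control libraries.

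The ligands of Cxcr3, the receptor of effector T and NK cells, are induced by interferons, and of the 35 ligands they varied most. Their promoters are shown because both genes were highest in the same library of each group: 250 bases before the RefSeq start on GRCm38.p6, minus strand, with motif matches in capitals. In Cxcl9 (chr5:92328080-92328329) the capitals are a kappaB match, and in Cxcl10 (chr5:92348890-92349139) an interferon-stimulated response element and then a kappaB match.
Cxcl9: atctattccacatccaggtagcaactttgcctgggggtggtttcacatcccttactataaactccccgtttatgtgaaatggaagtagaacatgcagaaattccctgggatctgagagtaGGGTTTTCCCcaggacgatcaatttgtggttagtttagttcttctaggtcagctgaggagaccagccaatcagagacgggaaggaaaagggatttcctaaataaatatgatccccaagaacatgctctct
Cxcl10: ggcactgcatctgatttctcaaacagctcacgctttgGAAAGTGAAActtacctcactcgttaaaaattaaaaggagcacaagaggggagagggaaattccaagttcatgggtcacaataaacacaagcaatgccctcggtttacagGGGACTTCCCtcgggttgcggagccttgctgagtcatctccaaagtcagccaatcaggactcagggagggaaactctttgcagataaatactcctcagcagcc
Both strands were searched for kappaB (GGG and TTNCC, 2 bases apart), the interferon-stimulated response element (GAAA and GAAA, 2 bases apart) and the gamma-activated site (TTC and GAA, 3 bases apart), where N is any base and matches may overlap. Of 27025 RefSeq promoters of this length 4.0% hold the kappaB letters, 3.04% the response element and 7.18% the gamma-activated site. Of the 28 ligand symbols with a promoter in the table (1 promoter a symbol, Ccl1 and Ccl27b included), the kappaB letters occurred in 8, namely Ccl9, Ccl19, Ccl20, Cxcl1, Cxcl2, Cxcl3, Cxcl9 and Cxcl10. The response element occurred in Ccl19, Cxcl10 and Cxcl14, and the gamma-activated site in Ccl17 and Cxcl14. Of the called ligands, Ccl6, Ccl9 and Cxcl12 had a promoter in the table, and of these Ccl9 held a match. A match describes letters only.

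Cxcl10 had 3.34, 19.0 and 5.71 CPM in LPS libraries, against 1.72, 2.96 and 6.87 CPM in control libraries. LPS 2 stood above the other 5 libraries, and the groups overlapped. The fit was 1.29 ± 0.99 (edgeR adjusted p = 0.392). Cxcl9, named for its spread after its values were seen, had 5.42, 45.6 and 10.6 CPM in LPS libraries, against 3.55, 5.16 and 15.2 CPM in control libraries. LPS 2 was thus 5.69 times the mean of the other LPS libraries for Cxcl9 and 4.2 times for Cxcl10. Cxcl16, the transmembrane ligand of Cxcr6 on resident lymphocytes, varied little, at 21.8, 30.8 and 33.0 CPM in LPS libraries, against 27.4, 32.0 and 38.3 CPM in control libraries, with a fit of -0.19 ± 0.27 (adjusted p = 0.66). Xcl1 (lymphotactin), through which NK and T cells reach type 1 dendritic cells, had 0.557, 1.14 and 0.581 CPM in LPS libraries, against 0.281, 0.159 and 0.747 CPM in control libraries, with a fit of 0.95 ± 0.71 (adjusted p = 0.372).

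The ligands of Ccr7, Cxcr5, Ccr6, Ccr9 and Ccr10, which place lymphocytes and dendritic cells in lymphoid tissue and mucosa, held 0 calls by edgeR in LPS against control lungs. Ccl21b, a Ccr7 ligand named after its values were seen, had 10.5, 20.1 and 8.14 CPM in LPS libraries, against 6.09, 6.72 and 6.26 CPM in control libraries. The groups did not overlap, and the fit of 1.03 ± 0.36 was not called (edgeR adjusted p = 0.0778), but DESeq2 called it, as did edgeR without LPS 3 or without RSBD 3. Ccl21a, a lymphatic ligand of Ccr7, had 39.6, 66.0 and 45.6 CPM in LPS libraries, against 40.8, 36.6 and 17.4 CPM in control libraries, with a fit of 0.68 ± 0.31 (edgeR adjusted p = 0.155). The coding sequences of Ccl21a and its copies Ccl21b and Ccl21d share 397 of 399 bases, and those of Ccl21b and Ccl21d all 399, so how reads were split among them is uncertain. Markers of thymus or lymph node, a tissue that could be taken along with lung and holds these ligands, summed to 0.131 to 0.436 CPM in LPS and 0.0704 to 0.463 CPM in control libraries. Cxcl13, the Cxcr5 ligand of B cell follicles, had 12.3, 19.8 and 17.0 CPM in LPS libraries, against 12.1, 25.2 and 41.6 CPM in control libraries (-0.68 ± 0.51, adjusted p = 0.372). Ccl20, the Ccr6 ligand of airway epithelium, had 0.929, 3.66 and 5.42 CPM in LPS libraries, against 3.06, 12.3 and 4.77 CPM in control libraries (-1.01 ± 0.66, adjusted p = 0.311). Ccl27a, a Ccr10 ligand, had 6.32, 6.53 and 7.3 CPM in LPS libraries, against 10.6, 9.55 and 8.43 CPM in control libraries. These did not overlap, and the fit of -0.50 ± 0.20 was not called (adjusted p = 0.109). Ccl27a lies over the protein-coding gene Il11ra1 on the opposite strand, so its values also depend on whether the counting used strand.

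**Figure D3:**
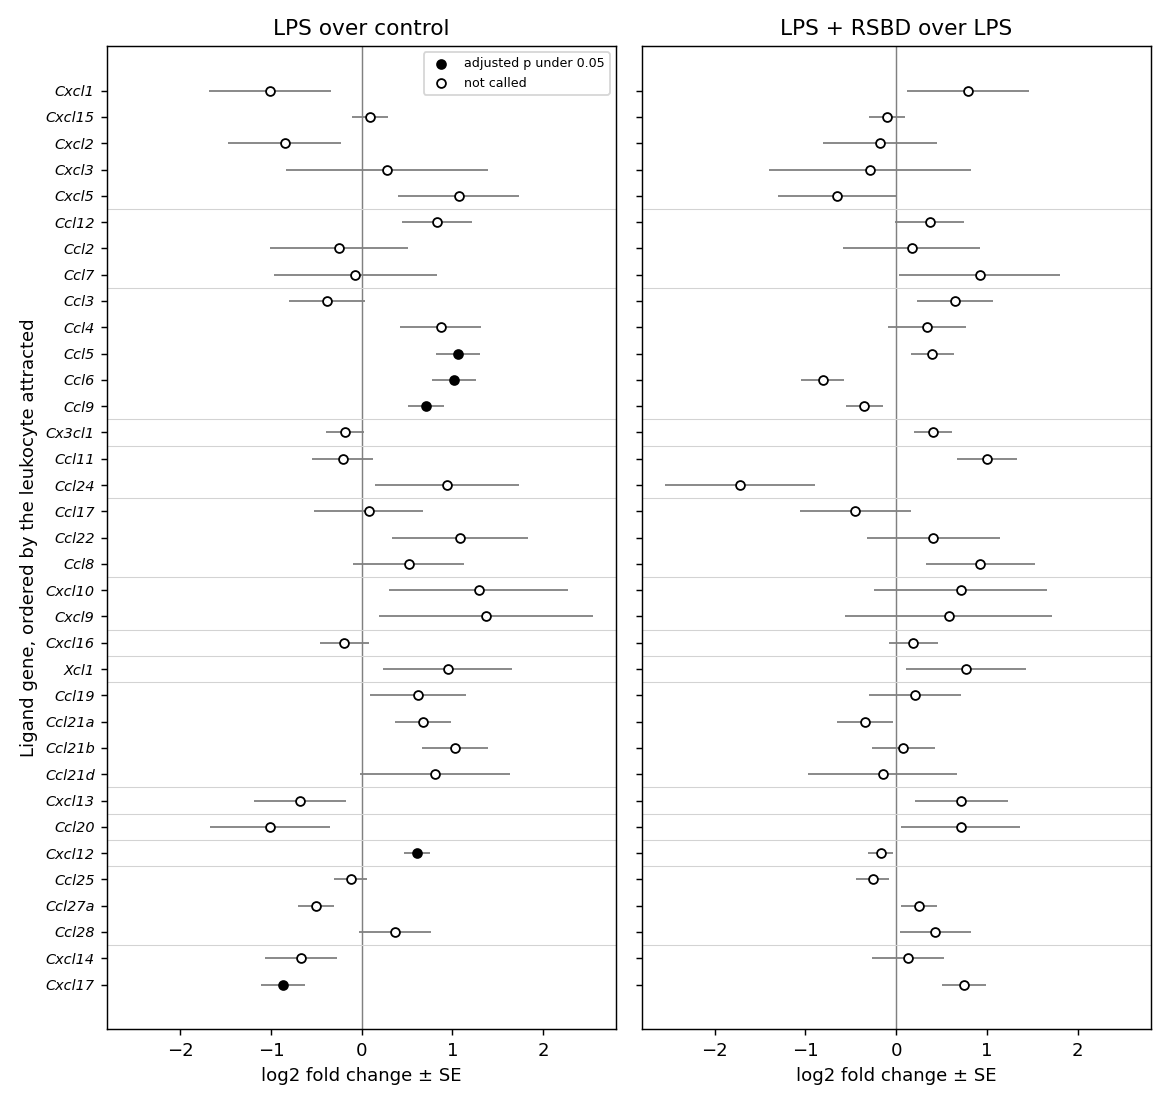
Log2 fold change ± SE of each described ligand, LPS over control on the left and LPS plus RSBD over LPS on the right, with filled points for adjusted p under 0.05. Filled points are Ccl5, Ccl6, Ccl9, Cxcl12 and Cxcl17 on the left, and there is no filled point on the right.

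In LPS plus RSBD against LPS lungs, 0 of 35 ligands passed the edgeR test, against 0.00% of all 15636 genes tested. At an unadjusted p under 0.05 there were 3 ligands, Ccl6, Ccl11 and Cxcl17, and 9.42% of all genes. DESeq2 called 1 ligand, Ccl6, among 159 genes, and limma on log2 TPM called 0 ligands and 1 gene. The groups failed to overlap for 1 ligand, Cxcl17 (2.86%), against 12.6% of all genes, and 2 ligands (5.71%), Ccl11 and Ccl24, had a fitted difference of 2-fold or more, against 3.47% of all genes. The median log2 fold change was 0.25 over the ligands, with 23 of 35 over 0, and 0.01 over all genes. The median SE was 0.43 for the ligands and 0.15 for all genes. The 2-fold difference fitted for Ccl11 had an SE of 0.33 and was not called.

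Ccl6 had 179, 259 and 233 CPM in RSBD libraries, against 246, 487 and 447 CPM in LPS libraries. RSBD 2 lay above LPS 1, so the groups overlapped. The fit gave -0.81 ± 0.24, which edgeR did not call (adjusted p = 0.405) and DESeq2 did (adjusted p = 0.039). Monocyte markers summed to 1360, 2280 and 2440 CPM in RSBD libraries, against 3120, 4430 and 3350 CPM in LPS libraries. The largest part was Chil3, at 567, 1360 and 1350 CPM in RSBD libraries and 1480, 3210 and 2450 CPM in LPS libraries. For each of the other listed monocyte markers the RSBD and LPS libraries overlapped. Neutrophil markers summed to 1000, 714 and 3350 CPM in RSBD libraries and 7330, 6760 and 2610 CPM in LPS libraries. Alveolar macrophage markers summed to 420 to 535 CPM in RSBD libraries and 428 to 558 CPM in LPS libraries. None of these markers was called in this comparison, and their part in the Ccl6 values was not tested.

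Cxcl17 had 55.1, 37.5 and 57.0 CPM in RSBD libraries, against 23.9, 35.2 and 30.0 CPM in LPS libraries. All LPS plus RSBD libraries were above all LPS libraries, with RSBD 2 close to LPS 2. The fit of 0.75 ± 0.24 was not called (edgeR adjusted p = 0.412, between 0.112 and 0.865 over the alternatives). Of the 6 club cell markers 0 were called in this comparison, and 3 did not overlap. Muc5b had 134, 91.9 and 97.4 CPM in RSBD libraries, against 24.3, 12.4 and 18.1 CPM in LPS libraries, and its fit was 2.56 ± 0.40 (adjusted p = 0.284). The fits were 4.32 ± 0.91 for Bpifa1 and 1.84 ± 0.38 for Scgb3a1 (adjusted p = 0.331 for each). The other markers overlapped, with fits of 0.19 ± 0.21 for Scgb1a1, 0.33 ± 0.17 for Cyp2f2 and 0.15 ± 0.15 for Scgb3a2. The club cell marker sums also overlapped, at 28900, 27400 and 35200 CPM in RSBD libraries and 20300, 26600 and 30700 CPM in LPS libraries. The part of club cells in the Cxcl17 values was not tested. Ccl11 had 8.12, 6.52 and 4.22 CPM in RSBD libraries, against 2.04, 3.04 and 4.32 CPM in LPS libraries. RSBD 3 lay just below LPS 3, and the fit was 1.00 ± 0.33 (adjusted p = 0.412).

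The other ligands called in LPS lungs had smaller fitted differences, and the LPS libraries serve in both comparisons. Ccl5 had 38.7, 74.5 and 41.8 CPM in RSBD libraries, against 45.3, 39.9 and 32.1 CPM in LPS libraries (0.40 ± 0.24, edgeR adjusted p = 0.632). RSBD 2 was the highest of all 9 libraries. Ccl9 had 39.2, 57.3 and 61.3 CPM in RSBD libraries, against 79.4, 72.9 and 48.8 CPM in LPS libraries (-0.35 ± 0.20, adjusted p = 0.626). Cxcl12 had 371, 339 and 285 CPM in RSBD libraries, against 361, 451 and 311 CPM in LPS libraries (-0.17 ± 0.14, adjusted p = 0.747). Both of these overlapped.

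The neutrophil and monocyte attractants were not called in LPS plus RSBD against LPS lungs. Cxcl1 had 3.18, 4.81 and 1.45 CPM in RSBD libraries, against 0.371, 3.3 and 1.78 CPM in LPS libraries (0.79 ± 0.67, edgeR adjusted p = 0.762). Ccl2 had 1.78, 7.23 and 1.78 CPM in RSBD libraries, against 0.78, 6.47 and 2.29 CPM in LPS libraries (0.17 ± 0.76, adjusted p = 0.967). In both groups the library numbered 2 was the highest for these genes. Cxcl15 had 982, 666 and 660 CPM in RSBD libraries, against 659, 868 and 940 CPM in LPS libraries (-0.10 ± 0.20, adjusted p = 0.919). Cx3cl1 had 53.7, 62.2 and 43.8 CPM in RSBD libraries, against 30.3, 34.7 and 55.2 CPM in LPS libraries (0.41 ± 0.21, adjusted p = 0.581).

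For the Cxcr3 ligands 1 library of each group dominated. Cxcl10 had 2.74, 36.9 and 6.33 CPM in RSBD libraries, against 3.34, 19.0 and 5.71 CPM in LPS libraries (0.71 ± 0.95, edgeR adjusted p = 0.871). Cxcl9 had 2.99, 80.5 and 9.16 CPM in RSBD libraries, against 5.42, 45.6 and 10.6 CPM in LPS libraries. RSBD 2 was 13.3 times the mean of the other LPS plus RSBD libraries for Cxcl9 and 8.13 times for Cxcl10. Without RSBD 2 the Cxcl10 fit was -1.06, and without both RSBD 2 and LPS 2 it was -0.0041. Ccl8 had 12.5, 36.1 and 11.7 CPM in RSBD libraries, against 3.42, 15.6 and 12.5 CPM in LPS libraries (0.93 ± 0.60, adjusted p = 0.665). Xcl1 had 0.823, 2.48 and 0.618 CPM in RSBD libraries, against 0.557, 1.14 and 0.581 CPM in LPS libraries (0.77 ± 0.66, adjusted p = 0.762). Cxcl16 had 24.5, 48.0 and 24.9 CPM in RSBD libraries, against 21.8, 30.8 and 33.0 CPM in LPS libraries (0.19 ± 0.27, adjusted p = 0.883). The T cell marker sum was also highest in RSBD 2, at 139, 273 and 116 CPM in RSBD libraries and 133, 164 and 157 CPM in LPS libraries. The NK cell sum was 83.4, 144 and 116 CPM in RSBD libraries and 92.2, 69.6 and 72.0 CPM in LPS libraries, also highest in RSBD 2. The part of these cells in the spread was not tested.

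Of the homing ligands, Ccl21a had 46.7, 32.0 and 40.3 CPM in RSBD libraries, against 39.6, 66.0 and 45.6 CPM in LPS libraries (-0.34 ± 0.31, edgeR adjusted p = 0.778). Cxcl13 had 20.0, 46.8 and 14.2 CPM in RSBD libraries, against 12.3, 19.8 and 17.0 CPM in LPS libraries (0.72 ± 0.51, adjusted p = 0.7). Both overlapped, and RSBD 2 was the highest of the 9 libraries for Cxcl13. Ccl20 had 5.81, 7.42 and 3.16 CPM in RSBD libraries, against 0.929, 3.66 and 5.42 CPM in LPS libraries (0.71 ± 0.66, adjusted p = 0.788). Ccl27a had 7.62, 6.07 and 10.3 CPM in RSBD libraries, against 6.32, 6.53 and 7.3 CPM in LPS libraries (0.25 ± 0.20, adjusted p = 0.745).

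The other ligands of each role were not called in any comparison by edgeR fitted over all 9 libraries, and most ranged widely. Ccl7, a Ccr2 ligand, had 0.932, 6.84 and 0.8 CPM in RSBD libraries, 0.446, 2.32 and 1.74 CPM in LPS libraries and 0.704, 1.59 and 2.46 CPM in control libraries. RSBD 2 was 7.9 times the mean of the other RSBD libraries. Ccl22 had 12.8, 33.3 and 3.78 CPM in RSBD libraries, and was again highest in RSBD 2. Ccl3 had 2.6, 3.16 and 1.34 CPM and Ccl4 1.59, 3.23 and 2.04 CPM in RSBD libraries, which overlapped the LPS libraries for both. Ccl24 stayed at 0.0727 to 0.302 CPM in RSBD, 0.0743 to 1.18 CPM in LPS and 0.211 to 0.446 CPM in control libraries. Ccl25, a Ccr9 ligand of gut and thymus epithelium, varied less, at 7.84 to 8.91 CPM in RSBD, 8.03 to 12.3 CPM in LPS and 10.1 to 12.4 CPM in control libraries. Cxcl14 had 53.4, 63.3 and 21.0 CPM in RSBD libraries, with RSBD 3 below all LPS and control libraries.

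**Figure D4:**
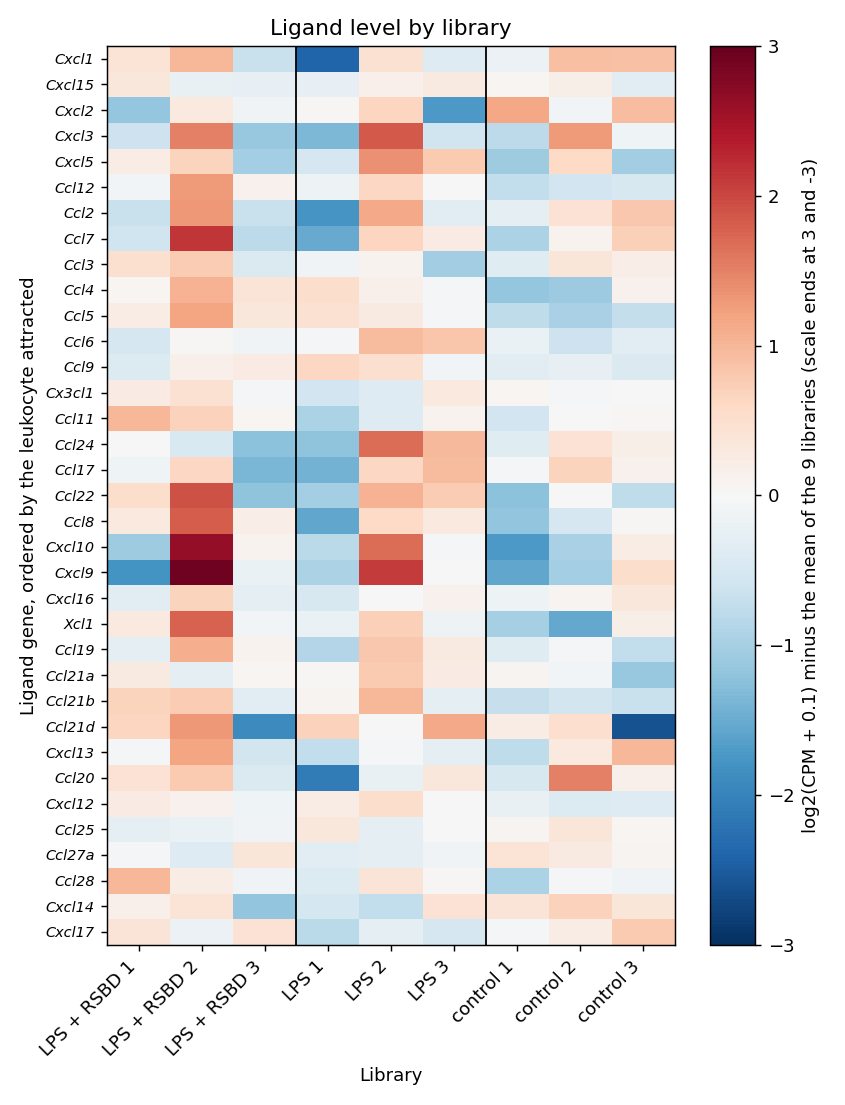
Level of each described ligand in each library, as log2(CPM + 0.1) relative to its mean over the 9 libraries, with LPS plus RSBD, LPS and control libraries from left to right. RSBD 2 was the highest of its group for 25 of 35 ligands and LPS 2 for 22 of 35.

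The libraries themselves stood apart across the family. RSBD 2 was the highest of its group for 25 of 35 ligands and the lowest for 3, and RSBD 3 was the lowest for 21. LPS 2 was the highest for 22 and LPS 1 the lowest for 25. In the control group, control 2 was the highest for 16 and control 1 the lowest for 21. Over the 9 libraries Cxcl9 spread 26.9-fold from lowest to highest (coefficient of variation 133%) and Cxcl10 21.4-fold (121%), against 1.56-fold for Cxcl15 (17.3%). With RSBD 2 and LPS 2 both left out, 1 ligand, Ccl5, was called in LPS against control lungs, and 0 ligands in LPS plus RSBD against control lungs.

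Against control lungs, 1 of 35 ligands was called in LPS plus RSBD lungs (2.86%), and it was higher. Over all genes 3.70% were called, 1.89% higher and 1.80% lower. It was Ccl5, with 38.7, 74.5 and 41.8 CPM in RSBD libraries, against 19.5, 16.8 and 20.0 CPM in control libraries. All LPS plus RSBD libraries lay above all control libraries. Ccl5 was higher by 1.46 ± 0.24 (edgeR adjusted p = 0.0189, between 4.44e-07 and 0.0725 over the alternatives), and the call was lost without any 1 of the control libraries or without RSBD 2 and LPS 2 together (0.0529). NK cell markers summed to 83.4 to 144 CPM in LPS plus RSBD and 28.4 to 33.6 CPM in control libraries, with 6 of 8 called higher, and their part in the result was not tested. At an unadjusted p under 0.05 there were 8 ligands (22.9%), against 22.7% of all genes. Groups did not overlap for 7 ligands (20.0%), against 30.4% of all genes, and 10 ligands (28.6%) had a fitted difference of 2-fold or more, against 4.85% of all genes. Fold changes of the ligands were less precise here too, with a median SE of 0.45 against 0.15 over all genes. The other LPS ligands were not called here: Ccl6 had a fit of 0.21 ± 0.24 (adjusted p = 0.65), Ccl9 0.36 ± 0.20 (0.325), Cxcl12 0.43 ± 0.14 (0.113) and Cxcl17 -0.12 ± 0.24 (0.807). DESeq2 called 4 ligands higher, namely Ccl5, Ccl12, Ccl21b and Cxcl12. The libraries of each group serve in 2 of the 3 comparisons, so these are not independent of each other.

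The receptors that read these ligands were taken as a list of 24 typical and atypical receptors, of which 23 were tested. In LPS against control lungs 4 were called higher and 0 lower, against 8.79% of all genes called higher and 8.63% lower, and in LPS plus RSBD against LPS lungs 0 were called (lowest edgeR adjusted p = 0.572). Against control, 3 were called higher and 0 lower in LPS plus RSBD lungs, where 1.89% of all genes were called higher and 1.80% lower. The median log2 fold changes of the list were 0.57, 0.03 and 0.42 in these 3 comparisons. Ccr2, the receptor of Ccl2, Ccl7 and Ccl12 on classical monocytes and 1 of the monocyte markers above, had 388, 251 and 199 CPM in LPS libraries, against 139, 92.0 and 95.3 CPM in control libraries. The groups did not overlap, and LPS 1, where Ccl2 was lowest, was the highest (1.36 ± 0.28, edgeR adjusted p = 0.0157). Ccr2 in RSBD libraries had 144, 173 and 245 CPM.

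Ccr3, a receptor for the eotaxins, is among the 8 listed markers of eosinophils, basophils and mast cells. It had 4.94, 2.84 and 3.34 CPM in LPS plus RSBD, 1.23, 6.43 and 3.2 CPM in LPS and 0.141, 0.509 and 0.0712 CPM in control libraries. It was higher than control by 3.89 ± 0.74 in LPS plus RSBD (edgeR adjusted p = 0.0262) and by 3.86 ± 0.74 in LPS lungs (0.0115), from 4, 16 and 2 control reads. In LPS against control lungs 5 of these 8 markers were called higher, namely Ccr3, Mcpt8, Cd200r3, Cpa3 and Ms4a2. Prg2 (0.15 ± 0.34, edgeR adjusted p = 0.787) and Il5ra (0.32 ± 0.51, 0.689) were not called, and Epx was too low to be tested. The part of each cell type in the Ccr3 result was not tested. Ccr7, the receptor of Ccl19 and Ccl21 on dendritic cells and naive T cells, had 22.4, 26.8 and 22.6 CPM in LPS plus RSBD, 24.2, 22.5 and 22.4 CPM in LPS and 13.3, 14.6 and 7.26 CPM in control libraries. It was higher than control by 1.03 ± 0.22 (0.0356) in LPS plus RSBD and 0.97 ± 0.22 (0.0181) in LPS lungs. Both groups given LPS lay wholly above control for each of these receptors.

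Ackr2, an atypical receptor that takes up and degrades inflammatory CC chemokines, had 57.7, 53.2 and 47.6 CPM in LPS libraries, against 26.2, 31.2 and 42.1 CPM in control libraries, and was higher by 0.67 ± 0.16 (edgeR adjusted p = 0.0216). In RSBD libraries Ackr2 had 46.0, 45.4 and 52.1 CPM, also wholly above control, with a fit of 0.53 ± 0.16 that was not called (adjusted p = 0.0892). Ccr8, the receptor of mouse Ccl8 on type 2 T cells, had 0.713, 2.36 and 0.836 CPM in RSBD libraries, against 0.281, 0.0637 and 0.213 CPM in control libraries, and was higher by 2.79 ± 0.66 (adjusted p = 0.048). In LPS libraries Ccr8 had 0.409, 0.718 and 0.618 CPM, also wholly above control, with a fit of 1.64 ± 0.68 that was not called (adjusted p = 0.116). The LPS plus RSBD and LPS libraries overlapped for Ccr8 (adjusted p = 0.581). The called groups did not overlap for either receptor, and Ccr8 rested on few reads in the control libraries.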

How the data were processed

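Lung RNA of 9 mice in 3 groups was read as strand-specific 150-base paired-end mRNA libraries, per the labels' protocols. The submitters' processing notes name fastp 0.23.2, HISAT2 2.2.1, StringTie 2.2.0, DESeq2 1.38.3 and GRCm38 (mm10), with no role or order. For the counter, its use of strand and the annotation: not given in the sources used here. As deposited by the authors, the estimated counts per gene are whole in every cell, so none was rounded. Cells of 2 outnumber cells of 1 (2989 and 1349), so independence of reads is in doubt, and the limit for 0 reads (3 counts) covers counting error only. The authors' deposited TPM values are scaled for length and depth.

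Genes passing filterByExpr (minimum count 10, minimum total 15) were fitted over all 9 libraries with TMM scaling and group as the factor, in R 4.3.3 with edgeR 4.0.16, robust and 2-sided; the fit was tested on simulated data. All 35 ligands passed this filter. The common biological coefficient of variation was 0.189. Alternatives were DESeq2 1.42.0, limma 3.58.1 on log2 TPM (pseudocounts 1 and 0.1), RLE scaling, other filters, 2 groups only, a replicate block, each library left out and, chosen after the data were seen, LPS 2 and RSBD 2 left out together. Library values and fits are given for ligands called in any comparison, Cxcl1, Ccl2, the most abundant ligand of each role, and called receptors; others that are named were chosen after their values were seen. Columns headed RS were taken as the RSBD samples by replicate number. The members and lists were chosen with earlier results of these data known. Of 38 ligand rows on chromosomes, 36 have the same coordinates in GENCODE M21 and 12 overlap another gene model. Among these, Ccl2, Ccl19, Ccl21a, Ccl25, Ccl27a, Cxcl10 and Cxcl16 overlap protein-coding genes on the opposite strand.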

Additional observations from a re-analysis of the deposited data

How the results depend on the processing

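The ligands called in LPS against control lungs (5) numbered 3 with limma at pseudocount 1, 1 without LPS 2 and RSBD 2 together and 0 to 6 with single libraries left out. All genes called there (2723) numbered 646 without LPS 2 and RSBD 2 together and 786 to 2870 with single libraries left out. Limma turned the split from 8.79% higher and 8.63% lower to 696 genes higher and 1300 lower (pseudocount 1) or 697 and 1290 (pseudocount 0.1).

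For LPS plus RSBD against LPS lungs (0 ligands, 0 genes), DESeq2 called 1 ligand and 159 genes, the fit of 2 groups only 1 gene, limma 1 gene at each pseudocount, and the omission of single libraries 0 to 4 genes. For LPS plus RSBD against control lungs (1 ligand, 578 genes), DESeq2 called 4 ligands and 1727 genes. Limma called 275 genes (90 higher, 185 lower) and 302 genes (100 higher, 202 lower), against 1.89% higher and 1.80% lower by edgeR. Without LPS 2 and RSBD 2 together 0 ligands and 28 genes were called, and without single libraries 0 to 1 ligands and 94 to 961 genes.

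The labels state no pairing of mice by replicate number. Same-numbered libraries correlated at -0.21 to 0.12 in their deviations from group means. That shows no strong shared deviation, but it cannot tell whether the mice were paired. With the replicate block, 3 ligands (Ccl5, Ccl6, Cxcl12) and 1828 genes were called in LPS against control lungs, and 240 genes in LPS plus RSBD against control lungs.

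Fold changes of ligands that were not called turned sign when libraries were left out. In LPS against control lungs the log2 values ran from -0.49 to 0.02 for Ccl11, -1.30 to 0.21 for Ccl2 and -0.03 to 0.23 for Cxcl15. They ran in LPS plus RSBD against LPS lungs from -0.19 to 0.66 for Ccl12, -0.84 to 1.22 for Ccl2, -1.06 to 1.76 for Cxcl10, -0.21 to 0.35 for Cxcl16 and -0.08 to 1.19 for Xcl1. Without LPS 2 and RSBD 2 together they were 0.03 for Ccl21a, -0.0041 for Cxcl10, 0.04 for Cxcl15 and -0.15 for Cxcl16. Cxcl17 in LPS plus RSBD against control lungs ran from -0.29 to 0.15, and was 0.05 without both. The causes were not tested. With 3 mice a group the median SE of a ligand's log2 fold change was 0.43 to 0.45, against 0.15 over all genes.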

Other observations

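The platelet CXC chemokines fall outside the symbol rule and were looked at after the data were seen. Pf4 (platelet factor 4), stored in platelet granules, had 7.73, 6.68 and 9.05 CPM in RSBD libraries, 23.0, 13.8 and 10.5 CPM in LPS libraries and 8.06, 3.63 and 8.15 CPM in control libraries. All LPS libraries lay above all others. Pf4 was higher in LPS than in control lungs by 1.25 ± 0.35 (edgeR adjusted p = 0.0393), and its value in LPS plus RSBD against LPS lungs was -1.01 ± 0.35, which was not called (adjusted p = 0.428). Ppbp, the precursor of a neutrophil-attracting platelet chemokine, had 24.5, 10 and 43.8 CPM in RSBD libraries, 86.7, 34.1 and 32.1 CPM in LPS libraries and 15, 4.04 and 8.54 CPM in control libraries. It was higher in LPS than in control lungs by 2.47 ± 0.65 (adjusted p = 0.0337), and RSBD 3 lay among the LPS libraries (-0.97 ± 0.61 in LPS plus RSBD against LPS lungs, adjusted p = 0.657).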
